A study of Mus musculus with 4 samples.

Results

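Lactotropes are the prolactin cells of the anterior pituitary. Here they were the barcodes in which Prl, the gene for prolactin, made up at least 5% of all unique molecular identifiers (UMIs, 1 per captured RNA molecule), with Gh under 10%, Pomc under 2% and Tshb under 1%. The limits on the other hormone genes set aside growth hormone cells, proopiomelanocortin cells and thyrotropes. Of 34737 deposited barcodes, 27220 passed a minimum of 500 genes and a maximum of 20% mitochondrial UMIs and were kept, and 4077 of those were lactotropes. Since Prl, Gh, Pomc and Tshb chose the cells, their values are given as description, without a test. Glands were taken from male C57BL/6J mice of wild-type genotype. The mice were fed for 12 weeks with either the control diet, CTRL below, or the high-fat diet, HFD below, and their age was not given. Glands were digested to single cells with collagenase and trypsin and run on the 10x Genomics 3' platform, which counts UMIs at the 3' end of polyadenylated RNA. The control diet gave 2 libraries (CTRL 1 and CTRL 2) and so did the high-fat diet (HFD 1 and HFD 2). How many glands a library holds, and whether 2 libraries of a diet are different mice, is not stated, so each p-value below speaks only to the spread among these 4 samples, and that spread may be technical.

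Lactotropes store prolactin in dense-core granules and secrete it at a high basal rate. Dopamine from the hypothalamus restrains them through the D2 receptor (Drd2), while oestrogen, thyrotropin-releasing hormone and vasoactive intestinal peptide raise prolactin synthesis or release. The pituitary transcription factor POU1F1 binds the Prl promoter and is needed for the lineage. Galanin, a neuropeptide encoded by Gal, is made by a subset of lactotropes, rises with oestrogen and acts on them locally.

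Because Prl is the gene that defines these cells, the 250 bases before its annotated start are shown, from RefSeq on GRCm38.p6 at chr13:27057320-27057569, plus strand, 5′ to 3′. Capitals mark the matches to TATNCAT, a core of the elements bound by POU1F1, searched on both strands.
Prl promoter: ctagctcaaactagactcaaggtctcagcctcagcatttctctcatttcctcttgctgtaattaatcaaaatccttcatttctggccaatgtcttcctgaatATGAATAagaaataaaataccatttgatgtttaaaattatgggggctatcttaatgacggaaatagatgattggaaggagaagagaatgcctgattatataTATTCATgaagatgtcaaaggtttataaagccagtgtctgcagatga
This window held 2 matches, and 1.26% of 32851 promoter windows of the same length held 2 or more, while 7.92% held at least 1. The Gal and Drd2 windows held 0. A match is a description of the letters and not a binding site.

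Libraries held 74758237 to 101903367 UMIs in all. The median lactotrope had 18050 UMIs (CTRL 1), 13272 (CTRL 2), 10132.5 (HFD 1) or 12136 (HFD 2), so HFD 1 was the shallowest and CTRL 1 the deepest. The same cell barcodes occurred in more than 1 library far more often in 2 pairs than in the others. CTRL 2 and HFD 1 shared 1423 barcodes, and HFD 1 and HFD 2 shared 3116, against 14 to 22 in each other pair. In the first pair the deeper copy had a median of 35.9 times the UMIs of the shallower one, and in the second pair 17.9 times, and 3110 of the 3116 shallower copies lay in HFD 1. Among lactotropes, 128 of the 944 cells of HFD 1 (13.6%) were shallower copies, against 1 in CTRL 1, 12 in CTRL 2 and 2 in HFD 2. The main results are therefore also given without the shallower copies, or without both copies, which leaves 191 of the 859 lactotropes of HFD 2.

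The cells carried the other lactotrope markers. Edil3, a secreted integrin ligand, was 39.9 to 44.5 times as high in the summed lactotropes of a library as in its Gh cells (Gh at least 10% and Prl under 5% of UMIs), per 1000000 UMIs. Angpt1, the TIE2 ligand angiopoietin 1, was 31.0 to 44.8 times as high. Agtr1a, the angiotensin II receptor, was 58.8 to 88.1 times as high, and Drd2 15.2 to 27.7 times. Drd2 did not set lactotropes apart from all hormone cells, since Pomc cells held 50.2 to 93.9 counts per 1000000 UMIs (CPM, unscaled) and lactotropes 58.9 to 64.6. Each marker was higher in lactotropes than in Gh cells in all 4 libraries, so the label fits the markers that the gate did not use.

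A smaller share of the kept barcodes were lactotropes after the high-fat diet. The share was 17.8% in CTRL 1 (exact 95% binomial interval 16.7 to 19.0) and 20.03% in CTRL 2 (19.1 to 21.0), and 11.8% in HFD 1 (11.1 to 12.5) and 11.7% in HFD 2 (10.9 to 12.4). Both control libraries lay above both high-fat libraries. The means were 18.9% ± 1.55 and 11.7% ± 0.0797 (SD, n = 2), a log2 ratio of -0.69, and the two-sided exact permutation p was 0.333, the smallest that 2 libraries against 2 allow. The intervals cover counting error only. Without the shallower copies the shares were 17.9%, 20.1%, 13.3% and 11.7%, and without both copies 17.8%, 19.2%, 13.5% and 4.48%. Among hormone-rich barcodes alone (Prl, Gh or Pomc at least 5%, or Tshb, Lhb or Fshb at least 1% of UMIs) the shares were 24.7%, 29.5%, 18.5% and 16.8%. The diets did not overlap under any of the 8 other settings tried. Leaving out both copies is not a separate check among these, since it took out 668 of the 859 lactotropes of HFD 2. The Gh cells of HFD 2 went only from 2956 to 2635, so this setting by itself lowers the lactotrope share there. Why the shared barcodes of HFD 2 lay so often in lactotropes was not tested. Prl took up 5.03% and 5.24% of all kept UMIs in the control libraries and 3.01% and 3.34% in the high-fat libraries, and 90.6% to 91.7% of those Prl UMIs lay in lactotropes.

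**Figure D1:**
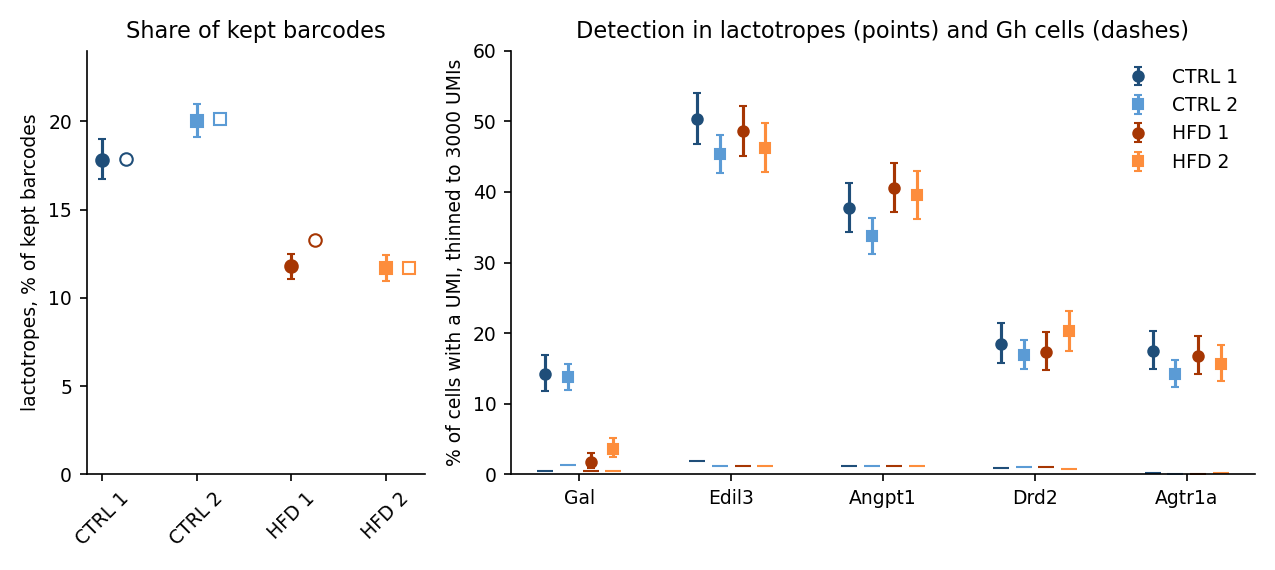
Left, lactotropes as a percentage of kept barcodes in each library, with exact 95% binomial intervals. Right, the percentage of lactotropes (points) and Gh cells (dashes) with a UMI of Gal, Edil3, Angpt1, Drd2 and Agtr1a after thinning each cell to 3000 UMIs. The 2 control libraries sit above the 2 high-fat libraries for the share (17.8% and 20.03% against 11.8% and 11.7%) and for Gal (14.3% and 13.8% against 1.79% and 3.58%).

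Within the class the Prl share of the 95th percentile cell was 6.75 to 8.18 times that of the 5th percentile cell. The median lactotrope had 23.6% of its UMIs from Prl in CTRL 1 and 20.6% in CTRL 2, against 16.7% in HFD 1 and 23.4% in HFD 2. The 5th and 95th percentiles were 7.60% and 51.3% in CTRL 1, 6.65% and 51.5% in CTRL 2, 5.89% and 46.5% in HFD 1, and 6.23% and 50.9% in HFD 2. HFD 1 was low while HFD 2 matched CTRL 1, so the diets overlapped. Without the shallower copies the medians were 23.6%, 20.6%, 16.8% and 23.4%. The highest single cell reached 78.2%, in CTRL 2. Gh made up a median of 0.139% to 0.312% of the UMIs of a lactotrope.

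**Figure D2:**
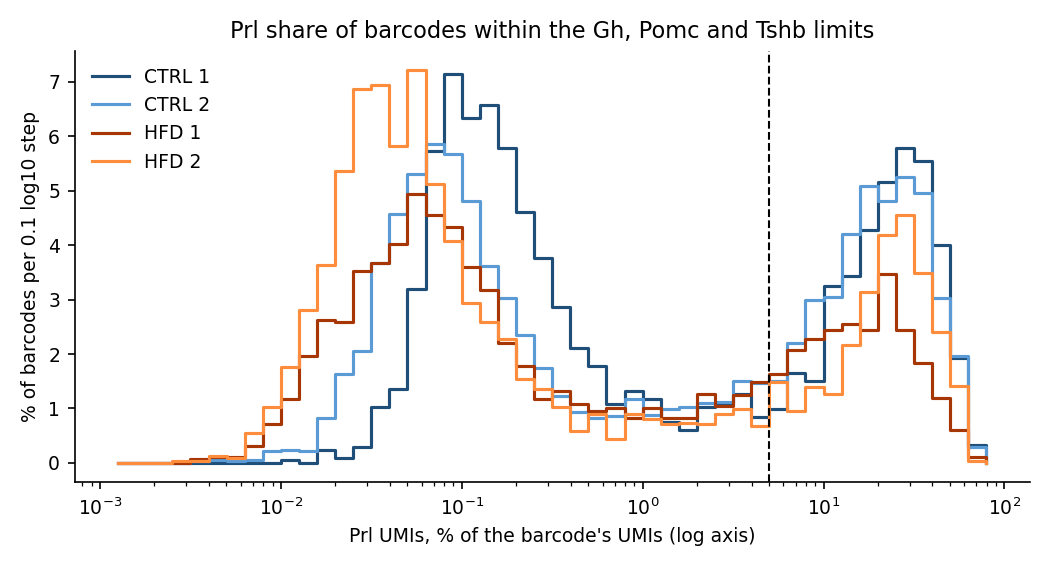
Distribution of the Prl share over the barcodes that met the Gh, Pomc and Tshb limits, per library, on a log axis, with the height as a percentage of barcodes per step. The dashed line is the lower limit of 5%, above which the 4 libraries hold 805, 1469, 944 and 859 lactotropes.

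Barcodes lay close on both sides of the lower limit. Of the lactotropes, 10.9% and 17.0% had 5% to 10% Prl in CTRL 1 and CTRL 2, against 26.0% and 14.4% in HFD 1 and HFD 2. Between 4% and 5% Prl lay 18, 55, 58 and 22 barcodes in CTRL 1, CTRL 2, HFD 1 and HFD 2, and between 5% and 6% lay 14, 39, 59 and 38. Edil3, per 1000000 UMIs that were not Prl, was 283, 257, 312 and 222 just outside the limit and 398, 335, 276 and 283 just inside. Gal was 175, 570, 11.1 and 21.7 just outside and 272, 191, 9.61 and 16.3 just inside. Barcodes on either side of the limit thus held both genes.

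In the control libraries, cells rich in Prl held less Gal. Among cells at 5% to 10% Prl, Gal stood at 194 UMIs per 1000000 that were not Prl in CTRL 1 and 255 in CTRL 2. The next ranges held 121 and 139 at 10% to 20%, 57.3 and 65.0 at 20% to 30%, 19.7 and 64.1 at 30% to 40%, and 22.8 and 27.8 at 40% or more. In HFD 1 the lowest range held 11.3 and the highest 1.97, the latter from 1 UMI, and in HFD 2 they held 40.1 and 8.77. Both control libraries were highest in the lowest Prl range. The high-fat libraries were highest at 20% to 30%, with 14.8 and 47.2, but from few UMIs. In HFD 1 this range held 25 Gal UMIs, against 22 and 24 in the lower ranges. In HFD 2 it held 107 against 50 and 57, and up to 13 lay in 1 thinned cell of that library. No shape over the Prl ranges is read from these high-fat values. Spearman's rho between the Prl share and Gal per thinned UMI that was not Prl, over cells of 1 library that share its depth and its free RNA (RNA of other cells in the droplets), was -0.25 in CTRL 1 (778 cells) and -0.23 in CTRL 2 (1367), against -0.03 in HFD 1 (784) and -0.06 in HFD 2 (810). For Edil3 rho was -0.11 to -0.01 over the libraries and for Angpt1 -0.11 to 0.03, so the Gal values of the high-fat libraries lay within the range of these genes. Of the thinned cells, 98.2% in HFD 1 and 96.4% in HFD 2 had no Gal UMI, against 85.7% in CTRL 1 and 86.2% in CTRL 2. Such ties shrink rho, so the high-fat values do not show that the relation of Gal to Prl was absent there. Edil3 levels sloped less, from 352 to 258 in CTRL 1, 308 to 223 in CTRL 2, 297 to 177 in HFD 1 and 263 to 201 in HFD 2. Angpt1 went from 216 to 173, 199 to 124, 220 to 158 and 248 to 135 in the same order.

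**Figure D3:**
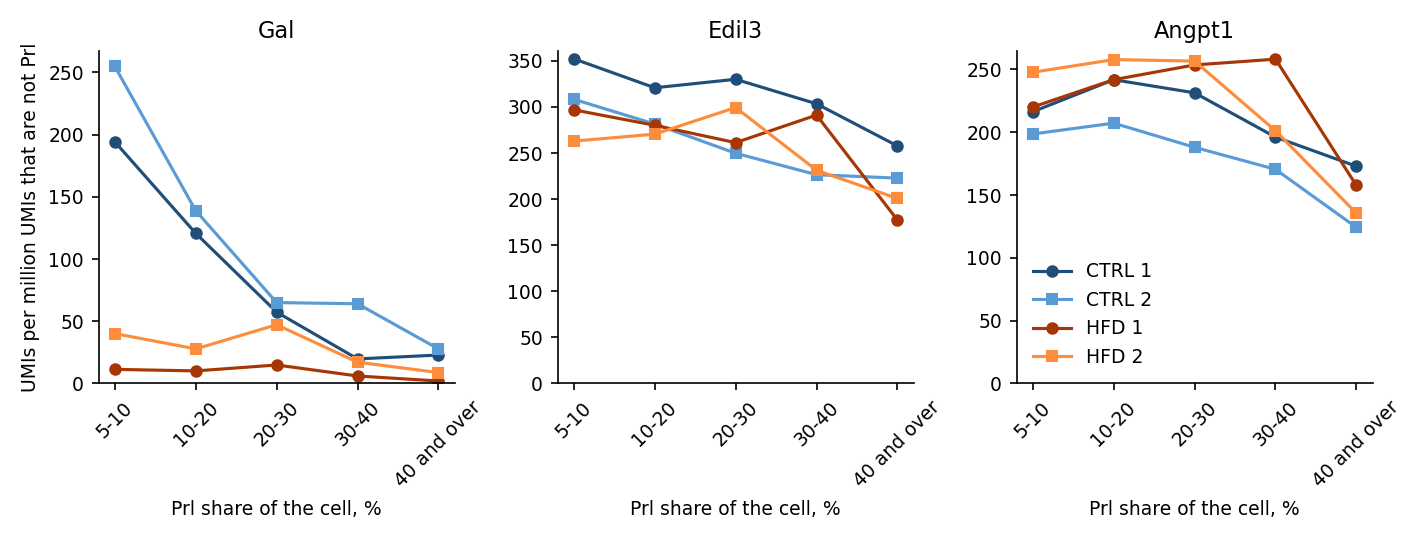
Gal, Edil3 and Angpt1 as UMIs per 1000000 UMIs that are not Prl, in lactotropes grouped by their Prl share, 1 line for each library. Gal goes from 194 and 255 in the lowest range to 22.8 and 27.8 in the highest in the control libraries. It lies at 47.2 or less in every range of the high-fat libraries. Edil3 and Angpt1 overlap between the diets in some ranges only. In the lowest range Edil3 is 352 and 308 in the control libraries against 297 and 263 in the high-fat libraries. Angpt1 there is 216 and 199 against 220 and 248.

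Genes of the secretory granule did not all follow Prl. Chgb, the granule protein secretogranin 1, went up with the Prl share in each library, from 7061 to 13904 per 1000000 UMIs that were not Prl in CTRL 1, 8150 to 15057 in CTRL 2, 10211 to 18331 in HFD 1 and 10050 to 15252 in HFD 2. Pcsk1n, which encodes the convertase inhibitor proSAAS, went down, from 4503 to 3060, 5583 to 3420, 4278 to 2183 and 4335 to 2395. Pou1f1 stayed between 601 and 909 in all ranges.

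Of 2637 genes compared, 604 were higher in Prl-rich than in Prl-poor cells in all 4 libraries, per 1000000 UMIs that were not Prl. The genes named are the extremes of these. The cells of highest and of lowest Prl share in each library were compared, 195 against 195 in CTRL 1, 342 against 342 in CTRL 2, 196 against 196 in HFD 1 and 203 against 203 in HFD 2. Peg10, an imprinted gene derived from a retrotransposon, was higher by 1.31 to 2.56 on the log2 scale over the libraries, per 1000000 UMIs that were not Prl. Gnai1, a subunit of the inhibitory G proteins that D2 receptors couple to, was higher by 1.06 to 2.19, the GABA-synthesising enzyme gene Gad2 by 1.03 to 1.64, and the prohormone convertase gene Pcsk2 by 0.91 to 1.59. Etv1, Col1a2, Eno3 and Zcchc12 completed the 8 highest by the lowest of the 4 libraries. Cga (the shared glycoprotein hormone subunit), Igfbp5 and Fshb were the most strongly lower in the Prl-rich cells, Cga with log2 ratios of -5.03 to -2.63.

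Some lactotropes carried RNA of other cell types. Lhb and Fshb together reached 0.2% of UMIs in 4, 2, 25 and 5 lactotropes of CTRL 1, CTRL 2, HFD 1 and HFD 2. At least 3 of 6 endothelial markers were detected in 10, 6, 18 and 9 lactotropes, and at least 3 of 6 macrophage markers in 4, 4, 10 and 4. The part of such mixed barcodes in the differences between Prl-rich and Prl-poor cells was not tested. Nor was it tested in the splits by Gal, Edil3 and Angpt1 below.

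Gal UMIs lay in few of the cells. After each cell was thinned to 3000 UMIs, the 10% of cells with the most Gal held 80.6% of the Gal UMIs in CTRL 1, 85.6% in CTRL 2 and all of them in both high-fat libraries, where under 10% of the cells had any. The 10% of cells richest in each gene held 36.1% to 38.8% for Edil3, 44.1% to 47.8% for Angpt1 and 20.5% to 23.99% for Prl. This figure is higher for genes of few UMIs, and Drd2, whose mean of 0.213 UMIs in CTRL 1 was close to the 0.219 of Gal, gave 60.2% there. Over the libraries Drd2 gave 52.8% to 63.6% and Agtr1a 61.8% to 73.1%. The variance of Gal over its mean was 2.44, 3.30, 1.12 and 5.41, with up to 10, 15, 2 and 13 UMIs in a cell, so HFD 2 held a few Gal-rich cells and no cell of HFD 1 exceeded 2 UMIs. For Edil3 the ratio was 1.07 to 1.29 and for Angpt1 1.19 to 1.28, and for Drd2 and Agtr1a 0.92 to 1.10. Ranked by this ratio among 9234 to 9484 genes, Angpt1 stood at 328, 433, 405 and 376 and Edil3 at 316, 441, 2510 and 695.

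Fewer lactotropes held a Gal UMI after the high-fat diet. At 3000 UMIs the share was 14.3% in CTRL 1 (exact 95% interval 11.9 to 16.9) and 13.8% in CTRL 2 (12.0 to 15.7), against 1.79% in HFD 1 (0.980 to 2.98) and 3.58% in HFD 2 (2.41 to 5.10). Both control libraries were far above both high-fat libraries. The means were 14.01% ± 0.364 and 2.68% ± 1.27 (SD, n = 2), a difference of -11.3 percentage points, with an exact permutation p of 0.333, the smallest possible. Unthinned, the shares were 31.8%, 27.7%, 5.93% and 7.80%. Thinning left out 27, 102, 160 and 49 shallower cells, and without the shallower copies the thinned shares were 14.3%, 13.9%, 2.95% and 4.08%.

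Gh cells, which were not shown to lack Gal, gave 0.473%, 1.37%, 0.474% and 0.483% at the same depth. The median depth before thinning was 18269, 13604, 10879.5 and 12347.5 UMIs in the lactotropes and 22715, 15097, 11399.5 and 11243 in the Gh cells. The lactotrope shares were above these Gh cell shares in all 4 libraries, though by a few percentage points or less in the high-fat libraries. Gh cells were low in Gal among the classes. In HFD 1, lactotropes held 8.31 CPM (unscaled) of Gal, against 19.6 in gonadotropin cells and 15.8 in barcodes of no named class. In the other libraries lactotropes were above gonadotropin cells, in HFD 2 at 22.8 against 19.7. Barcodes of no named class were above lactotropes also in CTRL 2 (153 against 92.2) and in HFD 2 (55.8 against 22.8). In CTRL 1 they were below (57.9 against 61.8).

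Detection of the other markers differed less between the diets at 3000 UMIs. Edil3 was detected in 50.4%, 45.4%, 48.6% and 46.3% of thinned lactotropes in CTRL 1, CTRL 2, HFD 1 and HFD 2 (Gh cells 1.16% to 1.89%), a difference of -0.42 points between the diets. The Edil3 difference was -3.40 points at 5000 UMIs, -3.60 at 2000 UMIs that were not Prl, -4.13 with putative doublets removed and -11.0 in unthinned cells, each with an exact permutation p of 0.333. Angpt1 was detected in 37.8%, 33.7%, 40.6% and 39.5% (Gh cells 1.16% to 1.27%), which differed by 4.28 points between the diets at 3000 UMIs and by -4.21 points in unthinned cells. Drd2 was detected in 16.9% to 20.2% and Agtr1a in 14.2% to 17.5%, and the libraries of the diets overlapped for both. At 3000 UMIs the exact permutation p was 1 for Edil3 and 0.333 for Angpt1, which does not show that the levels were alike.

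Cells thinned to 3000 UMIs of all genes have fewer UMIs left for other genes when Prl is high, so cells with a UMI of any such gene tend to have less Prl. Lactotropes with a Gal UMI had less Prl than those without. Their median Prl share was 14.1% against 25.5% without Gal in CTRL 1, 13.3% against 22.4% in CTRL 2, 13.0% against 17.5% in HFD 1 and 19.5% against 23.8% in HFD 2, from 111, 188, 14 and 29 cells with Gal. The same split by Edil3 gave 20.4% against 27.4%, 19.0% against 22.8%, 15.2% against 19.4% and 21.3% against 26.5%, and by Angpt1 20.5% against 26.3%, 18.5% against 22.7%, 16.6% against 18.0% and 22.0% against 25.2%. The gap was wider for Gal than for Edil3 and Angpt1 in both control libraries, and in HFD 2 it was wider for Edil3.

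The levels of other genes were then compared per 1000000 UMIs that were not Prl. Of 2637 genes, 288 were higher in the cells with Gal in all 4 libraries, none of them by over 1 on the log2 scale in each. Qpct, which forms the pyroglutamate start of many peptide hormones, led the higher genes, by 0.41 to 1.40 on the log2 scale. The other 7 of the top 8 were Fbxo2, Dner, Khdrbs3, the secreted protease-inhibitor-like gene Wfdc2 (0.33 to 0.39), the chemokine Cxcl14, Ndn and the G protein subunit Gng3 (0.30 to 0.67). Apoe, the lipid carrier apolipoprotein E, was lower with a log2 ratio of -1.95 to -1.54, Peg10 with -1.32 to -1.03 and Etv1 with -1.13 to -0.59. In the class sums Apoe stood at 31873 CPM (unscaled) in macrophage barcodes and 110 in lactotropes. The part of macrophage RNA in the Apoe difference was not tested. Peg10 and Etv1 were thus higher in Prl-rich cells and lower in cells with Gal, but these splits share the same cells.

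The Edil3 and Angpt1 splits shared genes. Of 2636 genes, 431 were higher in all 4 libraries in the cells with Edil3 and 389 in those with Angpt1. Cells with an Edil3 UMI had more Wfdc2 (0.25 to 0.57 on the log2 scale), the calcium-binding protein gene Calb1 (0.24 to 1.08), Lrpap1, 5330417C22Rik, Ly6h, Thy1, Caly and Timp2, and less Fshb, Cga and Igfbp5. Cells with an Angpt1 UMI had more Platr21 (0.32 to 0.42), Pianp, Gm2694, Calb1 (0.24 to 0.48), the AMPA receptor gene Gria4, Edil3 (0.21 to 0.29), Scn3a and Kcnh8, and less Apoe, Mia and Igfbp5. Calb1 stood in both lists of higher genes, and Apoe was among the lower genes for both Gal and Angpt1. Several lower genes were far higher in other classes. Cga and Fshb stood at 164714 and 14060 CPM (unscaled) in gonadotropin cells, against 1501 and 117 in lactotropes. Igfbp5 stood at 1857 in endothelial barcodes against 88.3. The part of RNA from other cell types in these splits was not tested.

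UMIs were summed over the lactotropes of each library to compare the diets across genes, with edgeR's quasi-likelihood test and Benjamini-Hochberg adjustment over the 13850 genes that passed its filter on low counts. After the high-fat diet 63 genes had an adjusted p under 0.05, which was 0.455% of those tested, and 1330 had an unadjusted p under 0.05. Of the 63, 26 rose (0.188%) and 37 fell (0.267%). None of the 63 had overlapping libraries, as was the case for 39.7% of all genes tested. The median log2 difference over all genes was 0.004, and the middle of the distribution, from the 10th to the 90th percentile, ran from -0.33 to 0.35. Without the shallower copies 58 genes were called, all of them among the 63, and without both copies 13 were called, 12 of them among the 63. Of the genes named below, Pgf, B830012L14Rik, Gm16222 and Id3 lost their call without the shallower copies (edgeR adjusted p = 0.0509 to 0.0566). Without both copies Nog, Abcb1b, Lpl, Wfdc2, B830012L14Rik, Cd36, Ccn3, Akr1c14, Rasd1 and Calb1 were still called. The other called genes named were not, with adjusted p-values from 0.0507 for Mt1 to 0.916 for Apoe, and Crabp1 did not pass the filter. The calls rested on both control libraries: without CTRL 2, edgeR called 0 genes, with 903 at an unadjusted p under 0.05, and without CTRL 1 it called 63, of which 27 were among the first 63. Levels below are CPM after TMM scaling (edgeR's correction for composition), in the order CTRL 1, CTRL 2, HFD 1 and HFD 2. A gene is called possible free RNA where its CPM in lactotropes was under 10% of that in another class, which holds for 4 of the 63. In sums over cells, fewer cells that express a gene and less RNA per cell cannot be told apart unless cell counts are given.

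Gal, on chromosome 19 (3409915 to 3414544, minus strand, GENCODE vM21 on mm10), was among the genes that fell. Its level was 62.3, 92.0, 8.06 and 23.4 CPM, both control libraries being above both high-fat libraries, and the UMIs came from 256, 407, 56 and 67 cells. The log2 difference was -2.28 ± 0.34 (SE) with an edgeR adjusted p of 0.0212. It was -2.29 without the shallower copies (adjusted p = 0.0253) and -2.09 without both copies (adjusted p = 0.306). It was called in 11 of 15 alternative analyses, and the call was also lost without CTRL 2 (-1.97, adjusted p = 0.320), with putative doublets removed (-2.29, adjusted p = 0.0530) and with DESeq2. In Gh cells Gal was also lower after the high-fat diet, at 4.13, 8.89, 1.96 and 1.98 CPM with a log2 difference of -1.72 (edgeR adjusted p = 0.147), and the difference between the classes was -0.67 (adjusted p = 0.522). Gal was also lower in both high-fat libraries in cells rich in both Gh and Prl, at 59.2, 47.1, 5.83 and 3.20 CPM (unscaled). Barcodes of no named class held 57.9, 153, 15.8 and 55.8, and endothelial barcodes 3.82, 4.30, 1.02 and 3.17. The diets overlapped in gonadotropin, Pomc and Tshb cells and in macrophage barcodes. The differences in these further classes and the part of free RNA in all these values were not tested.

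Genes of fatty acid handling moved in both directions. Cd36, a fatty acid transporter and scavenger receptor, had 11.6, 26.2, 1.27 and 0.672 CPM, with UMIs in 71, 211, 5 and 5 cells. It fell by 4.30 on the log2 scale (SE 0.47, edgeR adjusted p = 0.00614) and nearly all of its UMIs lay in the control libraries. Lpl, which encodes lipoprotein lipase, had 6.47, 7.01, 17.4 and 13.5 CPM and rose by 1.19 (SE 0.18, edgeR adjusted p = 0.0212). Of 26 lipid metabolism genes tested, these 2 were called, 16 were higher and 10 lower, and the median log2 difference was 0.12. Fabp5, a fatty acid carrier, had 44.9, 49.5, 31.0 and 20.5 CPM with an edgeR adjusted p of 0.0591, and Cpt1a, the entry enzyme of mitochondrial fatty acid oxidation, had 25.4, 23.5, 39.9 and 34.0 CPM with 0.0823.

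Among secreted and cell-surface signals, Nog, the BMP antagonist noggin, had 6.28, 7.82, 18.3 and 19.8 CPM and rose by 1.43 on the log2 scale (SE 0.16, edgeR adjusted p = 0.00614). Wfdc2 had 76.5, 81.2, 176 and 150 CPM and rose by 1.05 (SE 0.11, edgeR adjusted p = 0.00614). Both high-fat libraries were clear of both control libraries for these 2 genes. Ccn3, a matricellular protein, had 27.2, 23.4, 2.97 and 7.40 CPM and fell by 2.26 (SE 0.28, edgeR adjusted p = 0.00834). Pgf, placental growth factor, fell by 1.499 (edgeR adjusted p = 0.0473), and Lsamp, a neuronal adhesion molecule, fell by 1.45. Pgf was the gene called among 16 angiogenic and matrix signals, of which 6 were higher and 10 lower, with a median of -0.15.

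Other genes that rose were Thsd7b (1.92, 2.03, 8.27 and 9.12 CPM, log2 difference 2.13), the transcription factor Atoh7 (1.503), the drug efflux pump gene Abcb1b (12.1, 14.1, 31.4 and 29.0 CPM, 1.20), Medag (1.04), the ETS factor Etv5 (0.99), the mitochondrial translation gene Gatb (0.99), and the non-coding RNAs F730016J06Rik (1.10) and B830012L14Rik (0.89). Crabp1, a retinoic acid binding protein gene, was also called, from 16 UMIs in 1 cell of HFD 1 and 10 UMIs in 2 cells of HFD 2, so no fold is given. Nog, Abcb1b, Wfdc2, Cd36, Akr1c14, Rasd1 and Calb1 were called in 14 of 15 alternative analyses, all but the one without CTRL 2.

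Other genes that fell included Akr1c14, a steroid-converting enzyme, with 26.3, 35.1, 5.52 and 9.41 CPM, or -2.03 on the log2 scale (SE 0.22, edgeR adjusted p = 0.00614). Foxq1 (-1.56), the cytochrome oxidase subunit gene Cox7a1 (-1.54) and the spindle gene Prc1 (-2.41, from 8 or fewer cells in a library) were lower too. Col25a1 (-3.29) is a pituicyte marker here, and a single CTRL 2 cell held 42 of its UMIs. The summed pituicyte markers in the lactotropes were 4.98, 14.4, 1.31 and 1.21 CPM (unscaled). That sum includes Col25a1 itself, so it is not a separate measure of pituicyte RNA. The part of Col25a1 from other cells was not tested. Slc35f4 was called with 53, 66, 0 and 3 UMIs and the antisense transcript Gm16222 with UMIs in 6, 3, 0 and 1 cells, so no fold is given for either.

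**Figure D4:**
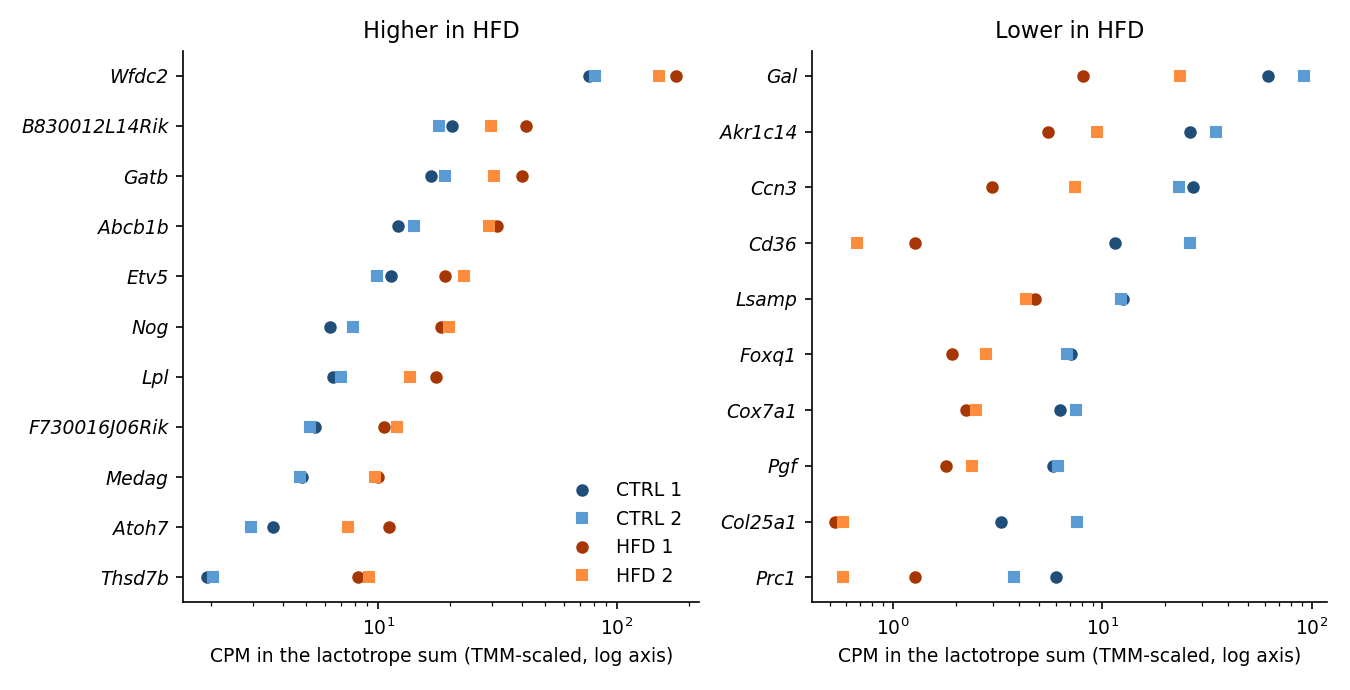
CPM (TMM-scaled, log axis) in the summed lactotropes of each library for 11 genes that rose and 10 that fell, those of largest change for which a fold is given, leaving out possible free RNA. For each gene the 2 control libraries lie on 1 side of the 2 high-fat libraries, for example Wfdc2 at 76.5 and 81.2 against 176 and 150 CPM.

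The lactotrope markers gave no call. Edil3 stood at 232, 200, 209 and 197 CPM (log2 difference -0.09, SE 0.11, edgeR adjusted p = 0.862), and Angpt1 had 161, 141, 178 and 173 CPM (0.22, SE 0.10, adjusted p = 0.542). Drd2 had 59.3, 58.8, 59.5 and 66.6 CPM (0.10, adjusted p = 0.847) and Agtr1a had 58.8, 50.3, 54.8 and 63.0 CPM (0.11, adjusted p = 0.840). None of these 4 had an unadjusted p under 0.05 or was called by DESeq2.

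Among 17 receptors of lactotrope inputs that passed the filter, edgeR called 0, 3 had an unadjusted p under 0.05 and DESeq2 called 0. Over all genes, 1330 of 13850 had an unadjusted p under 0.05 in edgeR, and DESeq2, run without that filter, called 98 of the 32281 genes it was given. The log2 differences ran from -1.39 to 0.66 with a median of -0.01. The oestrogen receptor Esr1 had 130, 119, 100 and 111 CPM (-0.23, edgeR adjusted p = 0.506), and the GABA-B receptor subunit Gabbr2 had 9.38, 7.26, 14.7 and 11.5 CPM (0.66, adjusted p = 0.216). The prolactin receptor Prlr had 49.0, 49.0, 45.2 and 47.9 CPM (-0.07), and the IGF1 receptor Igf1r differed by -0.21. Of 8 neuropeptide genes tested, Gal was called and 7 were lower, with a median of -0.47; the others lay at 7.52 CPM or less in every library.

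Of 11 oestrogen-responsive genes, Gal and Greb1 fell. Greb1, an oestrogen receptor cofactor, had 48.6, 45.4, 28.6 and 30.5 CPM and fell by 0.67 on the log2 scale (edgeR adjusted p = 0.0372), while 6 of the 11 were higher and the median was 0.17. Of 31 immediate-early genes, Fosb (-0.80, adjusted p = 0.0129) and Rasd1 (-1.19, adjusted p = 0.00614) fell, 26 were lower and 15 had lower high-fat libraries without overlap, against 19.8% of all genes, with a median of -0.40. Fos itself had 1510, 1729, 1099 and 1194 CPM (-0.50, adjusted p = 0.0781). Of the 31, 11 were possible free RNA.

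The metallothioneins Mt1 (580, 595, 347 and 280 CPM, log2 difference -0.91, edgeR adjusted p = 0.00838) and Mt2 (-0.94, adjusted p = 0.0119) fell together with Rasd1 among 13 glucocorticoid targets, 9 of which were lower, with a median of -0.09. Of 22 ion channels, the background potassium channel gene Kcnk2 fell by 0.63 (94.9, 113, 66.0 and 68.1 CPM, edgeR adjusted p = 0.0459), 13 were higher and the median was 0.04. Of 19 TGF-beta and activin genes, Id1 (1.57, adjusted p = 0.00838) and Id3 (0.66, adjusted p = 0.0459) rose, the median was 0.31, and both were possible free RNA. With putative doublets removed the adjusted p was 0.640 for Id1 and 0.846 for Id3. The endothelial markers in the lactotrope sums were 39.6, 10.9, 48.7 and 35.1 CPM (unscaled), with none of the 4 at 0, and their part in the Id1 and Id3 differences was not tested.

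The secretory machinery gave no call by edgeR. Of 26 granule and processing genes, 13 had an unadjusted p under 0.05 and DESeq2 called 3, 16 were higher and the median was 0.08. Over all genes the counts were 1330 of 13850 at an unadjusted p under 0.05 and 98 of 32281 by DESeq2. The libraries of the diets did not overlap for 10 higher and 5 lower genes, against 19.9% higher and 19.8% lower over all genes. The smallest p-values belonged to the synaptotagmin gene Syt1 (75.6, 83.5, 52.2 and 57.1 CPM, edgeR adjusted p = 0.0633) and Pcsk2 (68.4, 52.2, 179 and 92.6 CPM, adjusted p = 0.0781). Both were possible free RNA. Scg3, a granule sorting protein, had 425, 374, 534 and 510 CPM (0.39, adjusted p = 0.167).

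The other fixed lists gave 0 calls by edgeR. Their counts stand beside 1330 of all 13850 genes at an unadjusted p under 0.05 and 98 of 32281 genes called by DESeq2. Of 25 dopamine and cAMP pathway genes 14 were higher, the median was 0.01, 2 had an unadjusted p under 0.05 and DESeq2 called 1. Gnas, the stimulatory G protein subunit, had the smallest p there, at 6901, 7098, 9039.9 and 9152 CPM (0.38, adjusted p = 0.117). Of 18 lineage transcription factors 12 were higher (median 0.09, 4 at an unadjusted p under 0.05, 0 by DESeq2). Of 12 prolactin signalling genes 7 were lower (median -0.03, 3 and 0), of 23 unfolded protein response genes 15 were higher (0.08, 1 and 0), and of 14 heat shock genes 10 were higher (0.05, 2 and 0).

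Cell cycle and clock genes also gave 0 calls by edgeR. The counts over all genes were again 1330 of 13850 at an unadjusted p under 0.05 and 98 of 32281 by DESeq2. Of 13 proliferation genes 10 were lower, with a median of -1.09, 7 at an unadjusted p under 0.05 and 0 called by DESeq2. Their levels were low, the highest ranked, Ube2c, having 7.14, 2.84, 1.06 and 0.0960 CPM (edgeR adjusted p = 0.0937). Of 15 clock genes 8 were higher (median 0.06, 7 at an unadjusted p under 0.05, 1 by DESeq2), with the output gene Dbp at 29.3, 25.5, 38.8 and 49.3 CPM (adjusted p = 0.0707). Of 15 insulin and IGF pathway genes 9 were higher (0.09, 4 and 0), and of 7 nuclear RNAs 5 were higher (0.06, 2 and 0).

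The called genes that were neither in these lists nor among the 12 named as largest in each direction, which left out possible free RNA, numbered 31, of which 12 rose by 0.61 to 1.08 and 19 fell, with log2 differences of -1.40 to -0.55. A few of higher level are named here, chosen after their values were seen. Dlk1, a membrane protein of the Notch ligand family, had 959, 1246, 645 and 687 CPM (-0.73, edgeR adjusted p = 0.0434), and the creatine kinase gene Ckb had 387, 402, 274 and 266 CPM (-0.55). Calb1 had 113, 165, 48.4 and 64.0 CPM (-1.31, adjusted p = 0.0132). The secreted proteins Olfm1 (297, 275, 456 and 415 CPM, 0.61) and Efemp1 (81.1, 83.1, 125 and 138 CPM, 0.68) rose. Qpct (-1.002, adjusted p = 0.00696) and Gng3 (-0.75, adjusted p = 0.0246) fell, and both were higher in cells with Gal within each library, as was Wfdc2, which rose. Apoe had 97.9, 65.0, 165 and 162 CPM (1.01, adjusted p = 0.0280), was possible free RNA and had an adjusted p of 0.953 with putative doublets removed.

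The diet differences of lactotropes were then set against those of Gh cells in 1 model, to see where the classes differed. The difference between the classes passed an adjusted p of 0.05 in edgeR for 19 of 15679 genes (0.121%), 10 of them more positive in lactotropes and 9 more negative, and 1974 had an unadjusted p under 0.05. The count was 3 among cells of at least 3000 UMIs, 4 without CTRL 2 and 283 without HFD 2. In Gh cells alone 1 of 15234 genes was called. Some genes called in lactotropes moved the same way in Gh cells without a call. There Rasd1 had 145, 136, 56.9 and 44.2 CPM, Mt1 had 651, 931, 267 and 434, and Wfdc2 had 24.8, 33.5, 85.6 and 48.3. For these genes the classes differed by 0.28, 0.27 and -0.12 on the log2 scale (edgeR adjusted p = 0.591 to 0.839). That does not show that the classes were alike. Other called genes, such as Abcb1b (1.15, 1.78, 1.74 and 1.20 CPM), overlapped between the diets in Gh cells.

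Lpl rose in lactotropes while in Gh cells it had 42.0, 35.3, 21.2 and 17.6 CPM, both high-fat libraries being lower, and the classes differed by 2.16 on the log2 scale (SE 0.16, edgeR adjusted p = 0.00880). Fabp5 went the other way, with 85.9, 94.8, 183 and 108 CPM in Gh cells and a difference of -1.56 (SE 0.11, adjusted p = 0.00880). Nog had 15.6, 15.6, 11.1 and 12.0 CPM in Gh cells, and the classes differed by 1.86 (adjusted p = 0.0171). Cga differed by 1.26 (adjusted p = 0.0171), but its levels overlapped between the diets in both classes, at 1811, 487, 979 and 3456 CPM in lactotropes and 2553, 536, 517 and 1734 CPM in Gh cells. The summed gonadotrope markers in the lactotropes moved with it, at 175, 50.7, 66.4 and 292 CPM (unscaled), and their part was not tested. The neuronal adhesion gene Ntm (-1.76) and the neuroglobin gene Ngb (-1.83) completed the 6, both with an adjusted p of 0.0377. Cd36 was near the floor in Gh cells, at 0.531, 0.738, 0.0643 and 0.0272 CPM, and the difference between the classes was -0.58 (SE 1.11, adjusted p = 0.871), which does not show that they were alike.

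**Figure D5:**
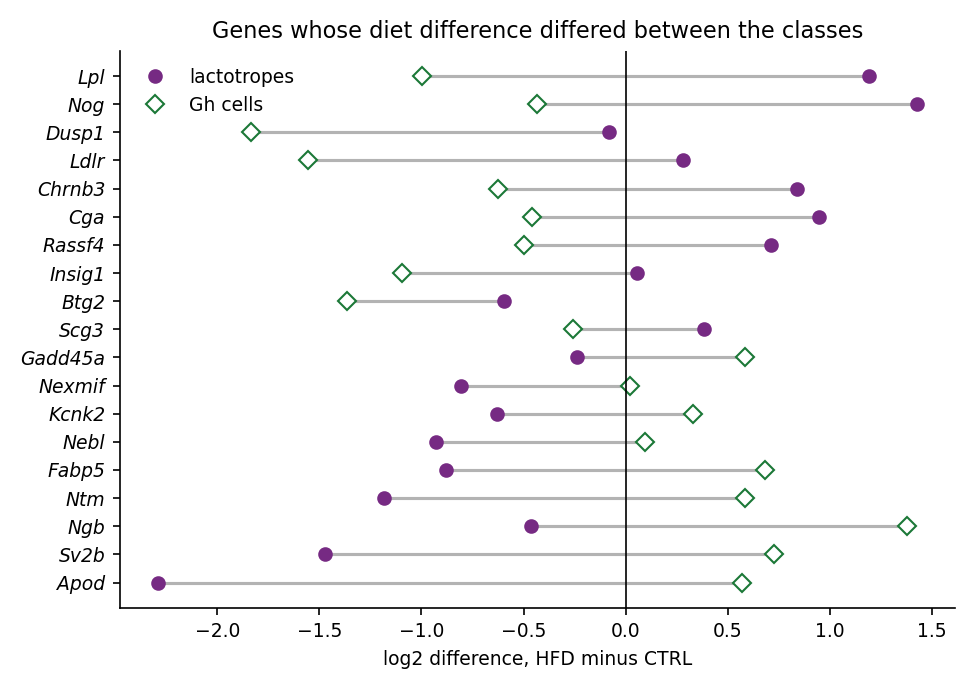
Log2 difference between the high-fat and control diets in lactotropes and in Gh cells, for the 19 genes whose diet difference differed between the classes. Lpl lies at 1.19 in lactotropes and -0.997 in Gh cells, and Fabp5 at -0.88 and 0.69.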

How the data were processed

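The deposited matrices held raw UMI counts, whole numbers for 32285 genes in each barcode, per the file headers. Cell Ranger 6.1.2, Seurat 4.3 and mm10 are named, without roles, per the submitters' processing notes. How genes were annotated and whether counting used the strand is not given in the sources used here, so overlapping and antisense genes are uncertain. No authors' cell annotation was used.

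Cells were gated on hormone shares as described, and putative doublets were kept, with their removal as an alternative. For shares of cells with a UMI, each cell was thinned to 3000 UMIs. UMI counts were summed over the lactotropes of each library and tested with edgeR 4.0.16 (R 4.3.3, filterByExpr, TMM, quasi-likelihood F-test, Benjamini-Hochberg). Gh cells entered a second model with a class-by-diet term. DESeq2 1.42.0 was an alternative, and the fit was checked on simulated data. Within-class splits used genes of at least 50 CPM, naming the 8 higher and 3 lower genes whose least extreme library was most extreme. Diet genes named were the 12 called genes of largest change in each direction that were not possible free RNA, called genes of the lists, the markers, and list genes of smallest p; which uncalled list genes and receptors to show was decided after their values were seen. The cells, members and lists were chosen with earlier results of these data known.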

Additional observations from a re-analysis of the deposited data

Results flagged for a closer look

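For the 6 genes of smallest p among 19, the diet difference in lactotropes differed from that in Gh cells by edgeR's test of the difference itself, with an adjusted p under 0.05. On the log2 scale the lactotrope difference minus the Gh cell difference was -1.56 for Fabp5, 2.16 for Lpl, 1.26 for Cga, 1.86 for Nog, -1.76 for Ntm and -1.83 for Ngb. Fabp5 and Lpl were called in 8 of 8 alternatives, Nog in 7, and Cga, Ntm and Ngb in 6. Removal of putative doublets and of both copies of shared barcodes was not among these 8 and was not run for this comparison. The Cga value ranged from 0.40 to 1.44 over these alternatives.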

How the results depend on the processing

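The number of genes called by diet in lactotropes was 63. It was 551 with no filter on low counts, 98 with DESeq2, 41 with putative doublets removed and 13 without both copies of shared barcodes, a setting chosen after seeing the data. Leaving out 1 library gave 0 to 312. With the replicate block it was 62, of which 47 were among the 63. The labels do not say whether same-numbered libraries belong together. A single correlation of their deviations (0.0758) cannot decide it, so the block is given only here. The number of genes whose diet difference differed from Gh cells was 19, and 358 with no filter on low counts, 34 with the stricter gate, 3 among cells of at least 3000 UMIs, and 4 to 283 when 1 library was left out.

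Some small differences changed sign. The diet difference in the Edil3 share was -2.94 to 2.09 points when 1 library was left out (0.727 without HFD 2), and in the Angpt1 share -4.21 points without thinning. On the log2 scale in the sums, Edil3 ran from -0.20 to 0.019 and Agtr1a from -0.0016 to 0.23 when 1 library was left out, and without both copies Edil3 was 0.050 and Prlr 0.11. The cause was not tested. The depth of HFD 1 limits what can be said of genes below a few CPM, and 2 libraries for each diet limit every p.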
